A study of Mus musculus with 18 samples.

Results

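Extracellular ATP and adenosine genes were followed in colon lamina propria cells of the mouse. The 8 genes, chosen by gene symbol, were Ada, Entpd1, Nt5e, Adora2a, Adora2b, P2rx4, P2rx7 and P2ry14. A gene with several probe sets would have been represented by the one selected on its mean over the 18 arrays, but each measured member had a single probe set, so no measured value decided a choice. Of the 8 genes, 6 had a probe set that carried their symbol alone, out of 19937 genes with such a probe set, and all 6 were among the 14003 genes tested, above the filter level of 3.51 in 18 of 18 arrays. Adora2a and Adora2b, which encode adenosine receptors coupled to cAMP production, had no such probe set and were not analysed here. The other adenosine receptor genes, Adora1 and Adora3, were not analysed either.

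The cells came from BALB/c mice aged 8 weeks, with or without 2% dextran sulfate sodium (DSS), a polymer given to injure the colon epithelium and cause colitis. MHC+CD11chigh cells freed with collagenase had been sorted by CD103 and CD11b, and the series title calls all of them dendritic cells. The 6 groups were CD103+CD11b- cells from untreated mice and from DSS mice, and likewise CD103+CD11b+ cells and CD103-CD11b+ cells, with 3 arrays each. The titles number 6 experiments, of which 1 to 3 were untreated and 4 to 6 had DSS, and an array of each subset came from every experiment. These numbers serve as replicate numbers here. Since no experiment held both conditions, DSS and experiment cannot be told apart. The labels do not give the length of DSS treatment, the number of mice behind an array or whether mice were pooled, so a p-value reflects only the spread of these arrays, which may be technical.

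ATP leaves stressed or dying cells and acts on P2X receptors, which are ATP-gated ion channels, and on P2Y receptors, which couple to G proteins. At the cell surface CD39, encoded by Entpd1, removes phosphates from ATP and ADP, and CD73, encoded by Nt5e, converts AMP to adenosine. Adenosine signals through its own receptors, often dampening immune responses, until it is taken up or converted to inosine by adenosine deaminase, the product of Ada. In the gut, P2X7 is known as a route by which ATP drives inflammasome activation, and P2Y14 is a receptor for UDP-glucose and related UDP-sugars.

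The promoters of the 3 members that separated CD103+CD11b- from CD103-CD11b+ cells in untreated and in DSS mice are shown because the results on the subsets turn on them. Each is the 250 bases before a RefSeq start in GRCm38.p6. For P2rx7 the first of 2 starts was taken, and for P2ry14 the start farthest upstream of 4. Capitals mark the AP-1 motif TGANTCA and the GC box GGGCGG, on either strand.

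Ada (chr2:163750240-163750489, minus strand): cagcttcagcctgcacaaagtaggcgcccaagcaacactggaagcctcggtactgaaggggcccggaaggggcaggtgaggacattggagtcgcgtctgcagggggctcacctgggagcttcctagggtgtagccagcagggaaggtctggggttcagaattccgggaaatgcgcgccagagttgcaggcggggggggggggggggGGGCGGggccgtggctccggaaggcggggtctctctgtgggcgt
P2rx7 (chr5:122643677-122643926, plus strand): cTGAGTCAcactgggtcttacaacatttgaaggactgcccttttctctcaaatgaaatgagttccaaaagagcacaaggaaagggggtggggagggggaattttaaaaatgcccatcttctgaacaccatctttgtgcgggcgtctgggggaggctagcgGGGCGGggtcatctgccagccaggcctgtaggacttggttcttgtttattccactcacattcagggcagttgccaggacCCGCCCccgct
P2ry14 (chr3:59153493-59153742, minus strand): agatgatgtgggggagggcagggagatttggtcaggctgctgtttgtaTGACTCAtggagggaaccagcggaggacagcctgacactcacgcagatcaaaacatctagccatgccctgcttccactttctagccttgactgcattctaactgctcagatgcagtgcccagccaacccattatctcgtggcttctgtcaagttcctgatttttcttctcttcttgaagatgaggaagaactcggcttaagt

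Of 32851 promoter windows of this length, 6.75% held the AP-1 motif and 32.7% the GC box. The Ada window held 1 GC box, the P2rx7 window 1 AP-1 motif and 2 GC boxes, and the P2ry14 window 1 AP-1 motif. The second P2rx7 window held neither, and of the 4 P2ry14 windows 2 held the AP-1 motif. The windows were also searched on both strands for PU.1 (GAGGAAGT, in 2.44% of windows), the ETS-IRF composite (2.30%), the interferon response motif (2.98%) and the cAMP response element (TGACGTCA, 1.55%), and none of the 3 held any of them. Of the hypoxia response motifs ACGTG (16.6%) and GCGTG (28.2%), the P2ry14 window held GCGTG 1 time. A match is a description of these letters only. P2rx4 lies near P2rx7 on chromosome 5, with 1 annotated gene and 0 protein-coding genes between them.

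Expression is given as log2 values made by RMA, so that a difference of 1.00 is a doubling of signal. Levels are compared between groups for one gene and never between genes, because probe sets differ in response. Standard errors are limma's, and a gene was called at a p adjusted over all 14003 genes below 0.05. In bulk samples, fewer cells of a type and less RNA per cell cannot be told apart.

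**Figure D1:**
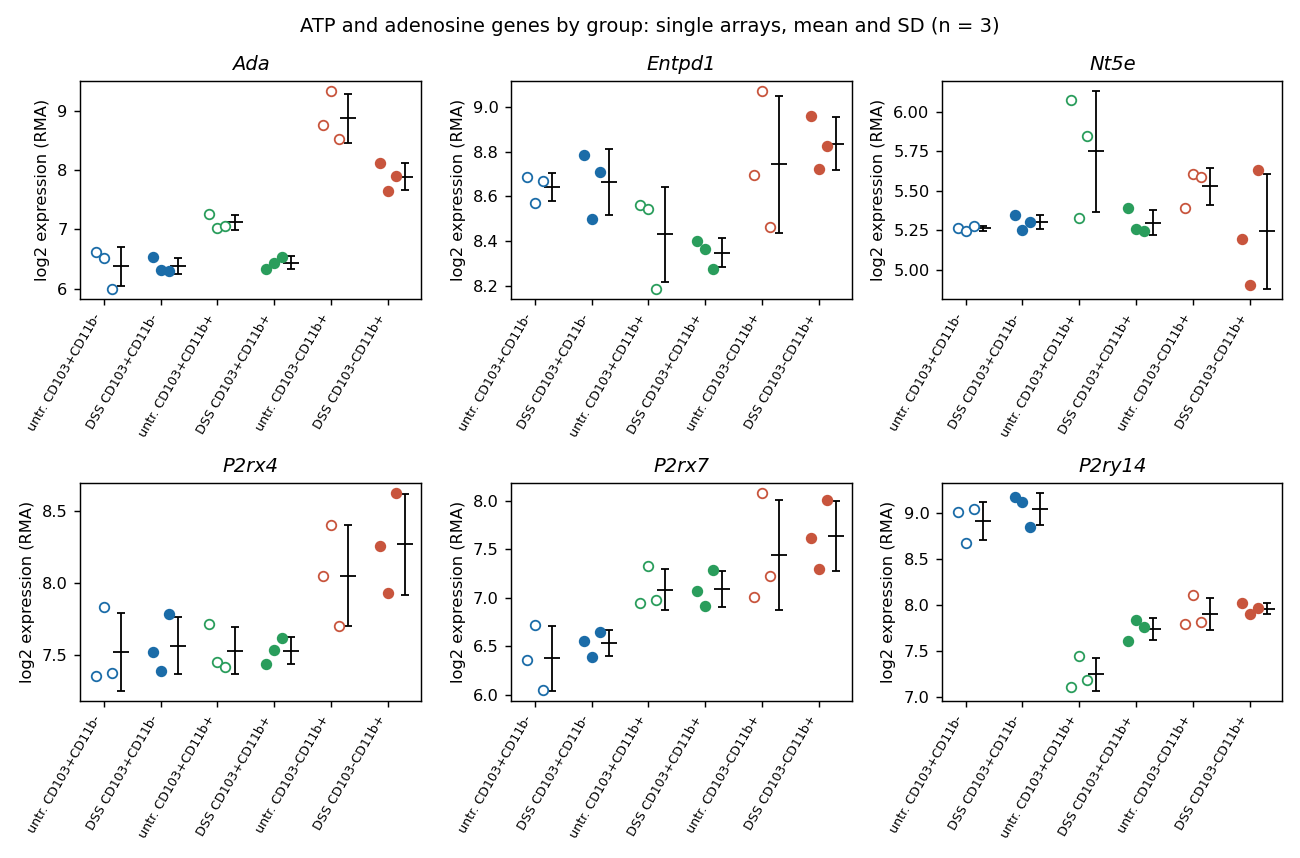
Log2 expression (RMA, vertical axes) of 6 genes in the 6 groups (horizontal axes). Open circles are untreated and filled circles DSS arrays, and the bars beside them give the mean and SD of 3 arrays. Ada was highest in untreated CD103-CD11b+ cells, at 8.53 to 9.34, and P2ry14 in CD103+CD11b- cells, at 8.67 to 9.18.

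Ada was highest in untreated CD103-CD11b+ cells, where the 3 arrays read 8.53, 8.76 and 9.34 (mean 8.88 ± 0.42, SD, n = 3). DSS CD103-CD11b+ cells came next at 7.65, 7.90 and 8.12, and untreated CD103+CD11b+ cells followed at 7.03, 7.06 and 7.27. The lowest levels were those of DSS CD103+CD11b+ cells at 6.33, 6.44 and 6.54, DSS CD103+CD11b- cells at 6.29, 6.31 and 6.53, and untreated CD103+CD11b- cells at 5.99, 6.52 and 6.62. No array of the first 3 groups overlapped with its neighbour in this order, whereas the last 3 groups overlapped with one another. The group means of Ada spanned 2.50, a wider span than that of 99.5% of the genes tested.

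P2rx7, the ATP-gated channel with the lowest affinity for ATP of its family, was also highest in CD103-CD11b+ cells. The values were 7.29, 7.62 and 8.01 after DSS and 7.01, 7.22 and 8.08 without it. CD103+CD11b+ cells read 6.91, 7.07 and 7.29 after DSS and 6.94, 6.98 and 7.32 without it. Untreated CD103+CD11b+ cells overlapped with CD103-CD11b+ cells of both conditions, while DSS CD103+CD11b+ cells overlapped with untreated CD103-CD11b+ cells and ended just below the lowest DSS CD103-CD11b+ array. CD103+CD11b- cells lay below every array of the other 4 groups, at 6.39, 6.55 and 6.65 after DSS and 6.05, 6.35 and 6.72 without it.

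P2rx4, which encodes an ATP-gated channel found on lysosomes and at the cell surface, read 7.93, 8.25 and 8.63 in DSS CD103-CD11b+ cells and 7.70, 8.05 and 8.40 in untreated CD103-CD11b+ cells. The other 4 groups had means of 7.52 to 7.57 and overlapped with one another. Their single arrays ran from 7.36 to 7.83, so that the lowest untreated CD103-CD11b+ array lay within their range and no DSS CD103-CD11b+ array did.

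P2ry14 had another order. It was highest in CD103+CD11b- cells, at 8.85, 9.12 and 9.18 after DSS and 8.67, 9.01 and 9.05 without it. CD103-CD11b+ cells read 7.90, 7.97 and 8.02 after DSS and 7.80, 7.82 and 8.11 without it. DSS CD103+CD11b+ cells at 7.62, 7.77 and 7.84 overlapped with untreated CD103-CD11b+ cells, and untreated CD103+CD11b+ cells were lowest, at 7.11, 7.19 and 7.45, below every other array. The group means spanned 1.80, wider than for 98.2% of the genes tested.

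The enzymes that lead from ATP to adenosine varied less. Entpd1 had group means from 8.35 in DSS CD103+CD11b+ cells to 8.83 in DSS CD103-CD11b+ cells, and neighbours in the order overlapped except untreated CD103+CD11b- (8.57 to 8.69) and untreated CD103+CD11b+ cells (8.18 to 8.56). Nt5e had group means from 5.24 to 5.75, with its highest arrays in untreated CD103+CD11b+ cells at 5.33, 5.85 and 6.07. In DSS CD103-CD11b+ cells Nt5e read 4.91, 5.19 and 5.63, a range that held every array of the other groups except 2 of untreated CD103+CD11b+ cells.

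The study's first question was how the 3 sorted subsets differ. Because the genes were proposed with earlier results of these data known, the tests below set the size of a difference against the spread between arrays and are not independent support.

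In untreated mice, CD103+CD11b- cells had 5.66-fold less Ada signal than CD103-CD11b+ cells (log2 difference -2.50 ± 0.19, adjusted p = 2.87e-08). P2rx7 was also lower, by a log2 difference of -1.06 ± 0.24 (adjusted p = 0.00551), and P2ry14 was 2.00-fold higher (1.00 ± 0.14, adjusted p = 5.94e-05). Each of these differences had the same sign in 3 of 3 experiments. P2rx4 differed by -0.53 ± 0.19 and was not called (adjusted p = 0.103), although with the experiment number as a block its adjusted p was 0.0410. Leaving out replicate 2 of CD103+CD11b- cells (adjusted p = 0.0498) or replicate 3 of CD103-CD11b+ cells (0.0347) also made it a call, for 4 members in all. Entpd1 (-0.10, 95% interval -0.42 to 0.21) and Nt5e (-0.27, interval -0.64 to 0.10) were not called. Thus 3 of 6 members were called, against 10.3% of all genes tested, and the arrays of the groups did not overlap for 4 of 6 members, against 22.6% of all genes. The median difference was -0.40 over the members and 0.01 over all genes.

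The same contrast after DSS gave 4 of 6 members, against 8.53% of all genes, with no overlap for 4 of 6 against 24.6%. Ada was 2.85-fold lower in CD103+CD11b- cells (-1.51 ± 0.19, adjusted p = 1.93e-05) and P2rx7 2.16-fold lower (-1.11 ± 0.24, adjusted p = 0.00427). P2ry14 was 2.12-fold higher (1.08 ± 0.14, adjusted p = 2.72e-05). P2rx4 was called here, at -0.70 ± 0.19 (adjusted p = 0.0256). That call was lost when any of 4 arrays was left out, namely replicate 4 (adjusted p = 0.0861) or 5 (0.116) of DSS CD103+CD11b- cells, or replicate 4 (0.0678) or 6 (0.169) of DSS CD103-CD11b+ cells. Entpd1 (-0.17, interval -0.49 to 0.14) and Nt5e (0.06, interval -0.31 to 0.43) were not called.

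**Figure D2:**
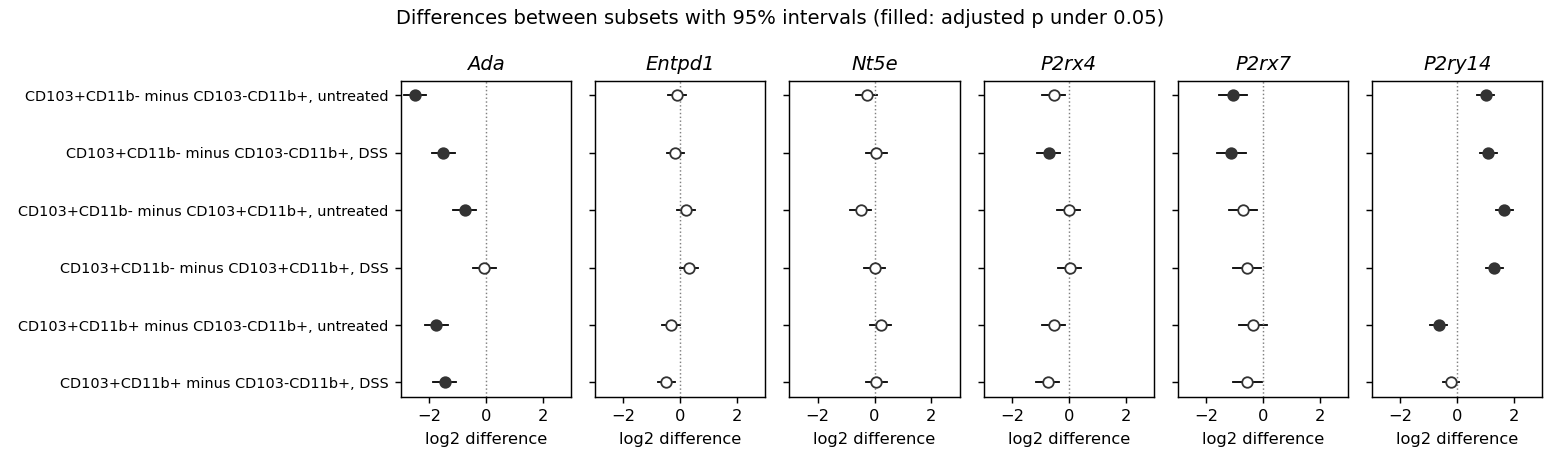
Log2 differences between subsets (horizontal axes) with 95% intervals from limma, for 6 genes in columns and 6 pairs of subsets in rows. Filled points have an adjusted p under 0.05: Ada was called in 5 of 6 pairs, P2ry14 in 5, P2rx7 in 2, P2rx4 in 1 and Entpd1 and Nt5e in 0.

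Between the CD103+ subsets of untreated mice, P2ry14 was 3.16-fold higher in CD103+CD11b- cells than in the CD103+CD11b+ subset (1.66 ± 0.14, adjusted p = 2.56e-07). Ada was 1.68-fold lower (-0.74 ± 0.19, adjusted p = 0.0205), a call that was lost without replicate 1 of CD103+CD11b+ cells (adjusted p = 0.0914) or replicate 3 of CD103+CD11b- cells (0.140). P2rx7 differed by -0.71 ± 0.24, lower in 3 of 3 experiments, and was called only with the experiment number as a block (adjusted p = 0.0892 without and 0.00674 with it). Nt5e differed by -0.49 ± 0.18 (adjusted p = 0.118), and by -0.70 without replicate 2 of CD103+CD11b+ cells (adjusted p = 0.0169). In all, 2 of 6 members were called against 6.86% of all genes, and 5 of 6 did not overlap against 22% of all genes.

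After DSS the CD103+ subsets differed in P2ry14, again higher in CD103+CD11b- cells (1.31 ± 0.14, adjusted p = 6.08e-06), the 1 member called of 6 against 5.96% of all genes. Ada, at -0.06 (interval -0.46 to 0.34), was not called. P2rx7 differed by -0.56 ± 0.24 (adjusted p = 0.244), and its adjusted p was 0.0343 with the experiment number as a block. The arrays did not overlap for 3 of 6 members, against 22.8% of all genes.

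Between the CD11b+ subsets of untreated mice, Ada was 3.38-fold lower in CD103+CD11b+ cells than in the CD103-CD11b+ subset (-1.76 ± 0.19, adjusted p = 3.41e-05). P2ry14 was 1.58-fold lower (-0.66 ± 0.14, adjusted p = 0.0113), lower in 3 of 3 experiments. The P2ry14 call was lost without replicate 1 of CD103+CD11b+ cells (adjusted p = 0.0557), without replicate 2 of CD103-CD11b+ cells (0.0637) and when only the arrays of these groups were fitted (0.115). These were the 2 of 6 members called, against 4.11% of all genes, and the 2 of 6 without overlap, against 17.4%. P2rx4 stood at -0.52 ± 0.19 (adjusted p = 0.162).

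After DSS, Ada was 2.73-fold lower in CD103+CD11b+ cells than in the CD103-CD11b+ subset (-1.45 ± 0.19, adjusted p = 0.000393) and was the 1 member called of 6, against 1.58% of all genes. P2rx4 stood at -0.74 ± 0.19 (adjusted p = 0.0632). Its adjusted p was 0.0195 with the experiment number as a block, and 0.0294 without replicate 5 of DSS CD103-CD11b+ cells. Entpd1 differed by -0.49 ± 0.15 (adjusted p = 0.143), P2rx7 by -0.55 ± 0.24 (0.441) and P2ry14 by -0.22 ± 0.14 (0.740). The arrays did not overlap for 5 of 6 members, against 16.5% of all genes.

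The study's other question was what DSS changed. No member was called in any DSS comparison by limma. Ada in CD103-CD11b+ cells came nearest: its values of 7.65 to 8.12 after DSS lay below those of 8.53 to 9.34 without it, a log2 difference of -0.99 ± 0.19 with an adjusted p of 0.0512. The adjusted p was 0.0444 with the experiment number as a random block and 0.171 without replicate 2 of untreated CD103-CD11b+ cells (-0.76). In CD103+CD11b+ cells Ada differed by -0.68 ± 0.19 (adjusted p = 0.260), again without overlap, and in CD103+CD11b- cells by 0.00 (interval -0.40 to 0.41).

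P2ry14 in CD103+CD11b+ cells was the other difference without overlap, at 0.49 ± 0.14 (adjusted p = 0.263). Nt5e in CD103+CD11b+ cells stood at -0.45 ± 0.18 (adjusted p = 0.391). P2rx4 and P2rx7 differed between DSS and untreated cells by 0.00 to 0.22 in the 3 subsets, and Entpd1 by -0.08 to 0.09. The 95% intervals for P2rx7 reached from -0.49 to 0.70 and those for Entpd1 from -0.40 to 0.41.

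**Figure D3:**
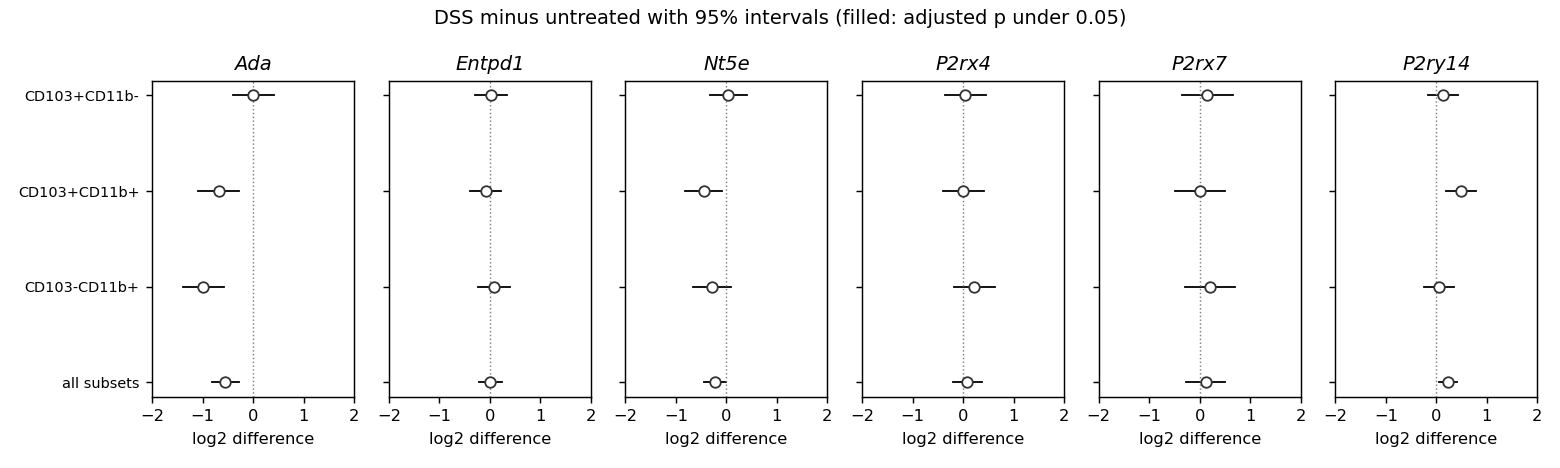
Log2 difference, DSS minus untreated (horizontal axes), with 95% intervals from limma, for 6 genes in columns and for each subset and all subsets together in rows. Every point is open (adjusted p of 0.05 or more), and the Ada differences run from 0.00 in CD103+CD11b- cells to -0.99 in CD103-CD11b+ cells.

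The members called were thus 0 of 6 in each subset, against 0.129% of all genes in CD103+CD11b- cells, 0.0857% in CD103+CD11b+ cells and 0.1% in CD103-CD11b+ cells. At an unadjusted p under 0.05 they were 0, 3 and 1 of 6, against 6.08%, 10.1% and 7.67% of all genes. The members whose arrays did not overlap were 0, 2 and 1, against 12.3%, 15.5% and 11.5% of all genes. Over all subsets, with the 3 arrays of an experiment averaged, Ada differed by -0.55 ± 0.12 (adjusted p = 0.137), and 0 of 6 members were called against 0.186% of all genes. There 3 of 6 members passed an unadjusted p under 0.05, against 10.5% of all genes, and the experiments did not overlap for 3 against 15.9% of all genes.

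Whether the DSS difference itself varied between subsets was tested by interaction terms. The difference of Ada was 0.99 ± 0.27 higher in CD103+CD11b- cells than in the CD103-CD11b+ subset (unadjusted p = 0.00178, adjusted p = 1.00) and 0.68 ± 0.27 higher in CD103+CD11b- cells than in the CD103+CD11b+ subset (adjusted p = 0.983). That of P2ry14 was 0.44 ± 0.20 higher in CD103+CD11b+ cells than in the CD103-CD11b+ subset (adjusted p = 0.869). In each of the 3 interactions 1 of 6 members passed an unadjusted p under 0.05, against 3.64% to 5.56% of all genes, and 0 members and 0% of all genes were called.

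The other genes that release, degrade, carry or sense nucleotides, or respond to cAMP, were taken from 9 lists. Of 68 such genes 60 had a probe set and 53 were tested. Between CD103+CD11b- and CD103-CD11b+ cells of untreated mice 3 of the 53 were called higher and 9 lower, against 5.01% and 5.32% of all genes. After DSS the counts were again 3 and 9, against 4.19% and 4.34%. Of the 12 genes called in each condition, 9 were called in both, all 9 in the same direction. The untreated and DSS cells share no arrays, but the same limma model fitted both and gave each gene a common variance. The calls in the untreated and DSS cells are therefore not independent of each other. The median difference of the 53 genes was -0.05 in untreated and -0.10 in DSS cells, against 0.01 and -0.01 over all genes.

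Genes lower in CD103+CD11b- cells included Slc29a3, a nucleoside transporter of lysosomes (-2.09 ± 0.20 in untreated and -1.73 ± 0.20 in DSS cells). P2ry13, an ADP receptor, was lower by a log2 difference of -1.60 ± 0.27 and -1.12 ± 0.27. Panx1, which forms channels that release ATP, stood at -1.50 ± 0.17 and -0.90 ± 0.17. Entpd7, a relative of Entpd1 inside the cell, stood at -1.10 ± 0.20 and -0.95 ± 0.20, while Entpd1 itself was not called. Of the cAMP-response targets, Nr4a2, a nuclear receptor, was higher in CD103+CD11b- cells (1.18 ± 0.12 and 1.00 ± 0.12). Vegfa, the vascular growth factor (-0.92 ± 0.12 and -1.21 ± 0.12), and Thbs1, which encodes thrombospondin (-0.92 ± 0.18 and -1.15 ± 0.18), were lower. Dpp4, the surface protein CD26 to which adenosine deaminase binds in humans, was higher in CD103+CD11b- cells (0.62 ± 0.14 and 0.92 ± 0.14), in the opposite direction to Ada. P2ry2, a receptor for ATP and UTP, was 1.99-fold lower in untreated CD103+CD11b- cells.

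**Figure D4:**
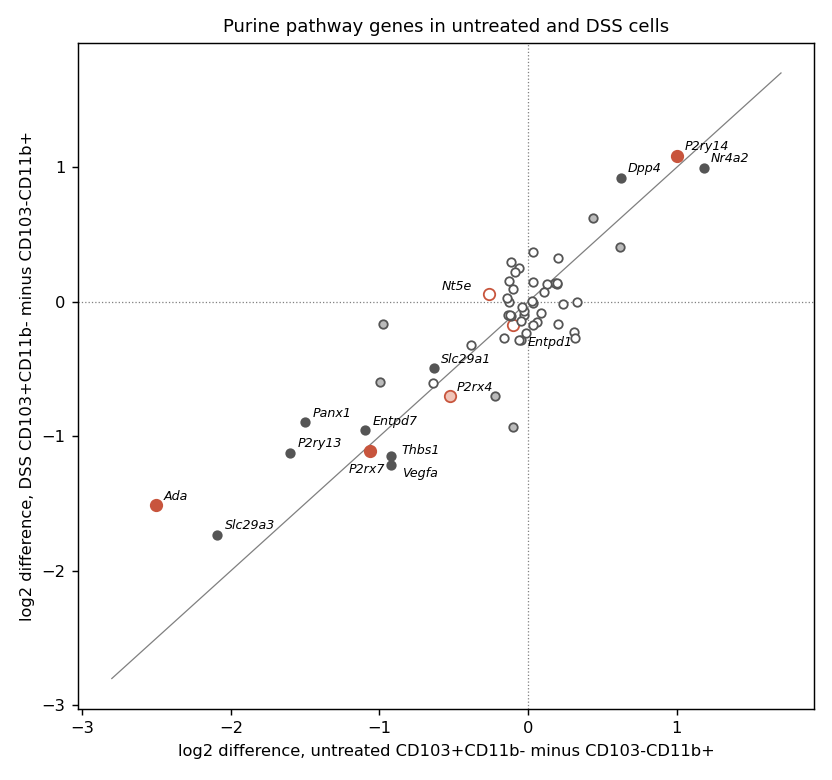
Log2 difference between CD103+CD11b- and CD103-CD11b+ cells in untreated (horizontal axis) and DSS mice (vertical axis), with the line of equal differences. Red points are the 6 members and grey points the 53 other genes of the lists, cAMP-response targets included. Dark points were called in both conditions, pale points in 1 and open points in neither. Ada lies above the line at -2.50 and -1.51, and P2ry14 and P2rx7 lie close to it.

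Between CD103+CD11b- and CD103+CD11b+ cells 1 of the 53 genes was called higher and 6 lower in untreated mice, against 2.76% and 4.09% of all genes. Slc29a3 (-1.21 ± 0.20) and Panx1 (-0.87 ± 0.17) were among the lower genes, with P2ry2 (-0.74 ± 0.20), Vegfa (-0.74 ± 0.12) and Nr4a3, a relative of Nr4a2 (-0.65 ± 0.12). Nr4a2 itself was higher (0.72 ± 0.12). After DSS the counts were 3 and 2, against 3.56% and 2.39%. P2ry6, a UDP receptor (0.94 ± 0.16), Nr4a2 (0.66 ± 0.12) and Dpp4 (0.63 ± 0.14) were higher, and Vegfa (-0.80 ± 0.12) and Slc29a3 (-0.72 ± 0.20) lower.

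Between CD103+CD11b+ and CD103-CD11b+ cells of untreated mice 2 of the 53 genes were called higher and 5 lower, against 2.36% and 1.75% of all genes. P2ry13 (-1.47 ± 0.27), Slc29a3 (-0.88 ± 0.20), Entpd7 (-0.83 ± 0.20), Panx1 (-0.63 ± 0.17) and P2ry6 (-0.57 ± 0.16) were lower, and Nr4a3 (0.68 ± 0.12) was among the higher. After DSS 0 were higher and 3 lower, against 0.436% and 1.14%: Slc29a3 (-1.01 ± 0.20), Thbs1 (-0.84 ± 0.18) and P2ry6 (-0.71 ± 0.16). Of the 6 P2Y receptor genes tested, 3 were called lower in untreated CD103+CD11b+ cells than in the CD103-CD11b+ subset, against 1.75% of all genes. They were P2ry13, P2ry6 (adjusted p = 0.0491) and the member P2ry14, whose call was lost in 3 alternatives. After DSS 1 of the 6, P2ry6, was called lower, against 1.14%. For DSS against untreated 0 of the 53 genes were called by limma in any subset, with 5 at an unadjusted p under 0.05 in CD103+CD11b- cells, 7 in CD103+CD11b+ cells and 14 in CD103-CD11b+ cells. The shares of all genes at that p were the 6.08%, 10.1% and 7.67% given above.

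Markers of other cell types were read beside these results. The sort was visible in Itgae, which encodes CD103, higher in untreated CD103+CD11b- cells than in the CD103-CD11b+ subset (3.01 ± 0.13), and in Itgam, which encodes CD11b, lower (-2.79 ± 0.20). After DSS these differences were 2.17 ± 0.13 and -1.89 ± 0.20. Conventional type 1 dendritic cell markers were higher in CD103+CD11b- cells than in the CD103-CD11b+ subset of untreated mice for 8 of 8 genes and type 2 markers lower for 6 of 7. In CD103-CD11b+ cells type 1 markers averaged 6.10 to 6.33 untreated and 6.50 to 6.57 after DSS, with 1 of 8 called higher. Itgae means there were 6.35 and 7.44. In CD103+CD11b- cells type 2 markers averaged 5.65 to 5.88 untreated and 6.01 to 6.11 after DSS, with 1 of 7 called higher. Itgam means there were 5.14 and 6.13. In CD103+CD11b+ cells type 2 markers averaged 7.98 to 8.12 untreated and 7.76 to 7.82 after DSS. The part of these shifts in the DSS results was not tested.

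Macrophage markers, like Ada, P2rx7 and P2rx4, were highest in CD103-CD11b+ cells. Their mean level over 10 genes was 5.91 to 6.13 in CD103+CD11b- cells of untreated mice, 6.62 to 6.83 in their CD103+CD11b+ cells and 7.50 to 8.19 in their CD103-CD11b+ cells. After DSS it was 6.37 to 6.46, 6.66 to 6.74 and 7.48 to 7.78. The marker means also differed between the CD103+ subsets, with CD103+CD11b- cells the lower. Between these subsets of untreated mice Ada differed by -0.74, P2rx7 by -0.71 and P2rx4 by -0.01. After DSS the differences were -0.06 for Ada, -0.56 for P2rx7 and 0.03 for P2rx4. In CD103+CD11b- cells the marker means were higher after DSS, where Ada differed by 0.00, P2rx7 by 0.15 and P2rx4 by 0.04. Of the 10 markers, 8 were called lower in untreated CD103+CD11b- cells than in the CD103-CD11b+ subset and 7 after DSS, and 0 were called between DSS and untreated CD103-CD11b+ cells. Replicate 2 of untreated CD103-CD11b+ cells had the highest macrophage mean, 8.19, and the highest array of Ada (9.34) and P2rx7 (8.08). Without it the CD103+CD11b- to CD103-CD11b+ difference in untreated mice was -2.27 for Ada (adjusted p = 1.32e-07) and -0.74 for P2rx7 (adjusted p = 0.0367). The part of macrophage content in these differences was not tested. Monocyte markers, 4 genes, averaged 5.08 to 5.49 in CD103+CD11b- cells and 5.57 to 5.82 in CD103-CD11b+ cells of untreated mice, with 1 of 4 called lower in CD103+CD11b- cells. After DSS they averaged 5.42 to 5.53 and 5.84 to 5.97, with 2 of 4 called lower, and their part was not tested.

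**Figure D5:**
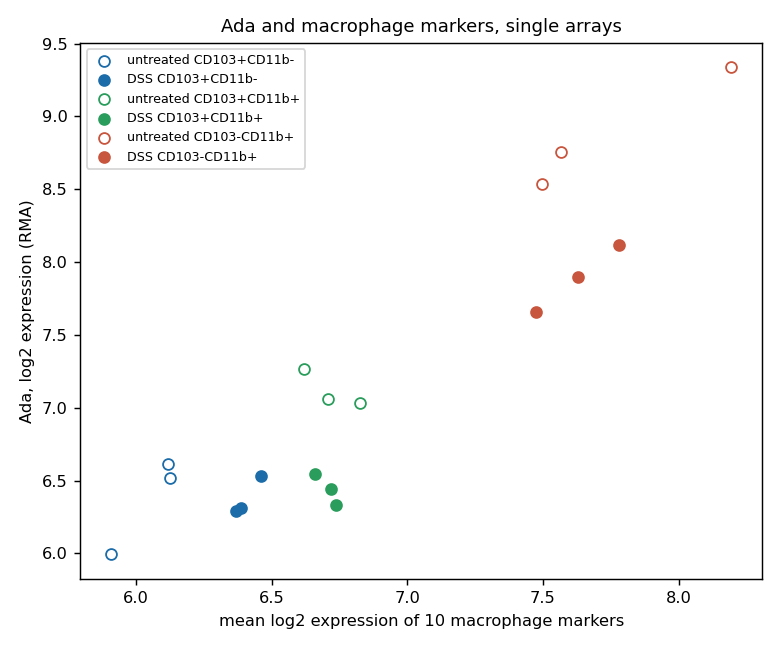
Ada log2 expression (vertical axis) against the mean log2 expression of 10 macrophage markers (horizontal axis), 1 point per array, open for untreated and filled for DSS cells. The CD103-CD11b+ arrays lie at marker means of 7.48 to 8.19, where untreated arrays had Ada at 8.53 to 9.34 and DSS arrays at 7.65 to 8.12.

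Epithelial markers read 7.95 to 8.96 on average in all groups, with 0 of 10 called between CD103+CD11b- and CD103-CD11b+ cells, and B and plasma cell markers 7.22 to 7.79, with 0 of 6 called there. The B and plasma cell mean was lower in DSS than in untreated mice in each subset without overlap: 7.22 to 7.27 against 7.45 to 7.60 in CD103+CD11b- cells, 7.27 to 7.41 against 7.68 to 7.79 in CD103+CD11b+ cells and 7.26 to 7.51 against 7.54 to 7.68 in CD103-CD11b+ cells. None of the 6 genes was called singly for DSS. T, NK and innate lymphoid markers averaged 6.03 to 6.08 in untreated CD103+CD11b- and 6.27 to 6.65 in untreated CD103-CD11b+ cells, with 2 of 9 lower. Neutrophil markers averaged 4.22 to 4.67 in untreated and 4.80 to 5.64 in DSS CD103+CD11b- cells, with 1 of 8 called higher after DSS. In CD103+CD11b+ cells they averaged 4.40 to 4.71 and 4.85 to 5.81, with 1 of 8 called higher. In CD103-CD11b+ cells they averaged 4.65 to 5.04 and 4.94 to 5.93, with 0 of 8 called. Their part in the results was not tested. Log2 array values have no true zero, and of all the markers tested Elane, a neutrophil elastase gene, was the 1 with every group mean under the filter level of 3.51.

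The genes whose levels followed a member most closely over the 18 arrays were named by Pearson's r, as a description over arrays that share 6 groups. For Ada they were C1qb (0.95), Tm4sf19 (0.94) and C1qa (0.94). C1qa and C1qb encode chains of complement C1q. Both belong to the macrophage markers averaged above, so their likeness to Ada is not separate from that mean. C1qa was 8.11-fold lower in CD103+CD11b- cells than in the CD103-CD11b+ subset of untreated mice and read 0.59 ± 0.18 lower in DSS than in untreated CD103-CD11b+ cells, a difference that was not called (adjusted p = 0.308). For P2rx7 they were Arg2 (0.94), Atp6v1c1 (0.94) and Slc7a8 (0.92), and for P2rx4 Arhgap17 (0.92), Lasp1 (0.91) and Mindy1 (0.90). For P2ry14 they were Ppt1 (0.98), Rab7b (0.96) and Irf8 (0.95), the last a transcription factor of type 1 dendritic cells.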

How the data were processed

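Gene expression was measured in 18 samples, 3 in each of 6 groups. Per the labels, 5 ng of total RNA was amplified (Ovation Pico), and 5.5 ug of single-stranded DNA was labelled with biotin (Encore) for Affymetrix arrays. The deposited table holds log2 values, which per the submitters' processing notes come from RMA, a method that corrects background, normalizes by quantiles and summarizes probe sets. They were used as deposited. Log2 values compress differences near background. The number of arrays limits the precision.

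Probe sets with 1 symbol were kept if above the 40th percentile of all values, 3.51, in at least 3 arrays, and the one of highest mean stood for a gene. All 18 arrays entered 1 model in limma 3.58.1 (R 4.3.3), with a mean per group, in 13 two-sided comparisons. P-values were adjusted by Benjamini-Hochberg over 14003 genes. The comparison over all subsets used the mean of each of 6 experiments. Scripts were tested on simulated data.

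The experiment number in the titles was taken as pairing subsets, but the main comparisons between subsets did not use this pairing. Residuals of same-numbered arrays correlated across genes at -0.03 to 0.32 (median 0.25) in untreated cells, against a median of -0.12 for other pairs, and at 0.11 to 0.31 (median 0.18) in DSS cells, against -0.13. Residuals were taken from the group means, so positive values for same-numbered arrays bring negative values for other pairs. The medians of other pairs are therefore no separate baseline. Alternatives were no filter or a filter at the 50th percentile, repeated quantile normalization, a variance trend with robust fitting, the experiment as a block, only the groups compared, and leaving out each array.

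The members and gene lists were chosen with earlier results of these data known. Named genes were the members, up to 6 called list genes of largest difference per comparison, and the 3 genes most like a member called in a comparison of subsets. A further pair of sort genes and the marker lists served as checks. Promoters came from RefSeq tables (GRCm38.p6), which held 7 of the 8 members.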

Additional observations from a re-analysis of the deposited data

How the results depend on the processing

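Over 1032 combinations of member, comparison and alternative, 1009 kept their side of the threshold, 9 lost a call, 14 gained one and 0 called differences turned sign. The 1009 include 57 in which a difference not called turned sign. With the experiment number as a replicate block, the members called became 2 of 6 between DSS CD103+CD11b- and CD103+CD11b+ cells, 2 between DSS CD103+CD11b+ and CD103-CD11b+ cells and, as a random block, 1 (Ada) for DSS in CD103-CD11b+ cells; in untreated cells the block added P2rx4 and P2rx7 as given above, and it changed no other call. Fitting only the groups compared gave 1 call between CD103+CD11b+ and CD103-CD11b+ cells of untreated mice and 2 between DSS CD103+CD11b- and CD103+CD11b+ cells. A variance trend with robust fitting gave 2 calls between DSS CD103+CD11b+ and CD103-CD11b+ cells (P2rx4, adjusted p = 0.0393) and 1 for DSS in CD103-CD11b+ cells (Ada, 0.0247), and quantile normalization applied again gave 1 there (Ada, -1.07, 0.0165). Leaving out 1 array gave 3 to 4 calls between CD103+CD11b- and CD103-CD11b+ cells of untreated mice, 1 to 3 between CD103+CD11b- and CD103+CD11b+ cells of untreated mice, 1 to 2 between CD103+CD11b+ and CD103-CD11b+ cells of untreated mice, 1 to 2 between DSS CD103+CD11b+ and CD103-CD11b+ cells and 0 to 1 for DSS in CD103-CD11b+ cells (Ada, without replicate 3 of untreated CD103-CD11b+ cells, adjusted p = 0.0464).

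Counts over all genes were less stable. The 575 genes called between CD103+CD11b+ and CD103-CD11b+ cells of untreated mice became 150 on only those groups, 341 or 349 without replicate 1 or 2 of CD103+CD11b+ cells and 315 without replicate 2 of CD103-CD11b+ cells, and with repeated quantile normalization 242 of 550 were higher in place of 330 of 575. The 221 called between DSS CD103+CD11b+ and CD103-CD11b+ cells fell to as few as 97 without 1 array. For DSS the 18 calls in CD103+CD11b- cells became 5 to 9 in the leave-outs that moved them by over 1.5 times, the 12 in CD103+CD11b+ cells 5 to 20 and the 14 in CD103-CD11b+ cells 5 to 29. On only the groups compared the last 12 and 14 became 0 and 3, and the trend gave 24 in CD103-CD11b+ cells. Over all subsets 26 became 16 with no filter, 51 with the trend, 10 without replicate 1, 11 without replicate 2, 7 without replicate 5 and 17 without replicate 6. The use of other probe sets was not run because each member had 1.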
